A study of Mus musculus with 3 samples.

Results

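The genes described here encode the machinery of homologous recombination and of the Fanconi anaemia pathway. They were taken by symbol from a list of 35, of which 33 were found among the 23185 named genes of the deposited table. The other two, Rbbp8 and Xrcc2, were not analysed here. Expression had been profiled on Affymetrix whole transcript arrays in bone marrow cells labelled LT-HSC, long-term haematopoietic stem cells, isolated from female C57Bl/6 mice aged 8 to 10 weeks. The non-irradiated array came from mice that received no irradiation, the 8Gy CDR array from mice given total body irradiation (TBI) of 8 Gy as CDR, and the 8Gy FLASH array from mice given the same dose as FLASH, which is delivery at an ultra-high dose rate. CDR is not spelled out in the labels and is read here as conventional dose rate. All cells were collected at day 15, 10000 per sample, and no genetic change is named for any group. How the cells were gated, and how many mice were pooled or used per sample, is not stated in the sources used here.

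There was 1 array in each of the 3 groups. No spread between samples exists, no test could be made, and "higher", "lower" and "equal" describe these arrays only. Values are the authors' processed levels on a log scale, read as log2, and a difference of 1 is a doubling. Chemosensory receptor genes, 1364 in number, were taken as unexpressed, and the 95th percentile of their values served as each array's detection level (4.15 to 4.22). A comparison counts a gene as detected if the brighter array exceeds its own level. All 33 genes read above it on all 3 arrays. Of the 14 LT-HSC markers listed, 12 were measured and all 12 were above the detection level on every array. All 9 measured erythroid markers and at least 8 of 10 granulocyte markers were above it on every array as well. Of the 5 T cell markers, Cd3d, Cd3e and Cd3g were above it on none. Cd8a was above it on all 3 arrays and Cd4 on the non-irradiated array alone.

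Homologous recombination repairs a double-strand break by copying the intact sister chromatid, and cells use it mainly while they replicate or have replicated their DNA. The ends are trimmed to single strands, a protein filament is loaded on them with the help of BRCA1, PALB2 and BRCA2, the filament invades the sister, and the joined molecules are then taken apart by helicases and nucleases. The Fanconi proteins detect crosslinked DNA at stalled replication forks and hand the lesion to the same recombination factors. Inherited loss of a Fanconi gene leads to bone marrow failure, and blood stem cells are among the cells most sensitive to such loss.

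The promoters of these genes were examined for a shared sequence feature, because many genes of recombination are known targets of E2F, the family of transcription factors that switches on genes of DNA replication. RefSeq promoters (GRCm38.p6, 250 bases before to 50 bases after the start site) were found for 27 of the 33 measured genes. They were not found for Rad50, Nbn, Exo1, Rad51d, Rad54b and Fancd2. The letters TTCCCGC were searched on both strands as an E2F motif. Variants searched with them were TTCGCGC, then the letters TTGCCGC, and also the letters TTGGCGC, and matches may overlap one another. They occurred in 15 of the 27 genes (55.6%). Counted by gene, 10.9% of all 27025 genes with a RefSeq promoter of this length held such a match, and 18.5% of the 10521 detected ones did. Counted by promoter, 9.57% of all 32851 held one, beside 53.3% of the 30 promoters of the genes described here. The CCAAT box, searched as CCAAT, was in 17 of the 27 genes, against 42.4% of those detected genes. The cell cycle element CHR, searched as TTTGAA and TTCGAA, was in 3 of the 27, namely Bard1, Rad51b and Eme1, against 16.3%. These matches are descriptions of letters and not of bound sites.

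The 250 bases upstream of the start site are printed for 6 genes, 5′ to 3′ on the gene's strand, with E2F letters of either strand in capitals. Eme1 (chr11:94653744-94653993, minus strand) and Fanca (chr8:123318577-123318826, minus strand) are shown because they had the largest differences from the non-irradiated array, and neither held a match.
Eme1: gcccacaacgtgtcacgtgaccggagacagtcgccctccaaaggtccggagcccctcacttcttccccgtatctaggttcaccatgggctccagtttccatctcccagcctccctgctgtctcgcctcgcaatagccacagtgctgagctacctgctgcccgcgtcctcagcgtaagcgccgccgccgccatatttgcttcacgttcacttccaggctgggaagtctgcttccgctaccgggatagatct
Fanca: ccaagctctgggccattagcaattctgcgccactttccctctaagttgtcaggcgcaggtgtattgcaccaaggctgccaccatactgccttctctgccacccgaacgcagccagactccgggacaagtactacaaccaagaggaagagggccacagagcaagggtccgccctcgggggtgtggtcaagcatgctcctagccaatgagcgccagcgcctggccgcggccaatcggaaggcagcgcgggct
Bard1 (chr1:71102973-71103222, minus strand) and Blm (chr7:80534999-80535248, minus strand) are shown as genes with a match that were higher on both irradiated arrays.
Bard1: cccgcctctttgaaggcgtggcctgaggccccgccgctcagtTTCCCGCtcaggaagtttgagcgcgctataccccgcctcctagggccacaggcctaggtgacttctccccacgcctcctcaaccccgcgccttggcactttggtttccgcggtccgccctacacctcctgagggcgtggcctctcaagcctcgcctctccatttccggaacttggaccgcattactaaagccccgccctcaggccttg
Blm: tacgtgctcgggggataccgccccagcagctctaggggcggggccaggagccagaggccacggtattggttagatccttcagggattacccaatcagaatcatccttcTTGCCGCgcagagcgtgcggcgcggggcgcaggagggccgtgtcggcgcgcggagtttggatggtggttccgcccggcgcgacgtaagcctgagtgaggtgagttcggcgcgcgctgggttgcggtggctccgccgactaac
Brca2 (chr5:150522371-150522620, plus strand) and Fancg (chr4:43010302-43010551, minus strand) also held a match but read the same on all 3 arrays.
Brca2: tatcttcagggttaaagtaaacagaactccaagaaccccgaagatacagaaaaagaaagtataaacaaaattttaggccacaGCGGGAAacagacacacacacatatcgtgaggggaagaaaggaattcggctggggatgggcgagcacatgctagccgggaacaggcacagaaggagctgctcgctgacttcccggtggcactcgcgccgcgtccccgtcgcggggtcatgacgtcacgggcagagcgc
Fancg: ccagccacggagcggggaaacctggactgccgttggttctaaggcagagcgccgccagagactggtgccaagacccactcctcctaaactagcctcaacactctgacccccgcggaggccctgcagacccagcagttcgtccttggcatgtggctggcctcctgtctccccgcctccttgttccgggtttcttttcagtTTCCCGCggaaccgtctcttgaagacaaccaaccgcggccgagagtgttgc

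Against the non-irradiated array, these genes were mostly slightly higher or equal on both irradiated arrays, and few were lower. On the CDR array 20 of 33 were higher by any amount (60.6%), 10 were equal and 3 were lower. Over 13462 detected genes, 34.7% were higher, 35% were equal and 30.4% were lower. The FLASH array gave the same counts of 20 higher, 10 equal and 3 lower, where 33.4% of 13456 detected genes were higher, 34.1% equal and 32.5% lower. The median difference was 0.046 on each irradiated array (1.033-fold), and the mean was 0.132 on CDR and 0.115 on FLASH, beside medians of 0.00 and means of -0.024 and -0.012 over all detected genes. Both comparisons use the same non-irradiated array, so their values are given side by side and do not bear each other out. In RNA from a cell population, a change in the number of cells of a type cannot be told apart from a change in RNA per cell.

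The differences were small. On the CDR array 1 of 33 genes was at least 1.5-fold higher (3.03%, against 3.19% of all detected genes), and on FLASH 0 were (against 3.54%). None was at least 1.5-fold lower on either, against 5.38% and 5.23% of detected genes. At 1.2-fold, 8 of 33 were higher on CDR (24.2%) and 7 on FLASH (21.2%), where 12.7% and 12.5% of detected genes were. None of the 33 was at least 1.2-fold lower on either array, beside 12.8% and 13.7% of detected genes. No gene was 2-fold different, where by that much 0.765% of detected genes were higher and 2.35% lower on CDR, and 1.15% and 1.73% on FLASH. On CDR and FLASH alike, 6 of 33 genes passed 1.2-fold upwards (18.2%, against 9.5% of 13527 genes detected in any comparison). These were Brca1, Bard1, Palb2, Rad54l, Fanca and Eme1. Exo1 and Fancd2 passed 1.2-fold on the CDR array alone and Rad51ap1 on the FLASH array alone. Exo1 just missed it on FLASH, at 0.258 against a threshold of 0.263, after 0.267 on CDR.

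**Figure D1:**
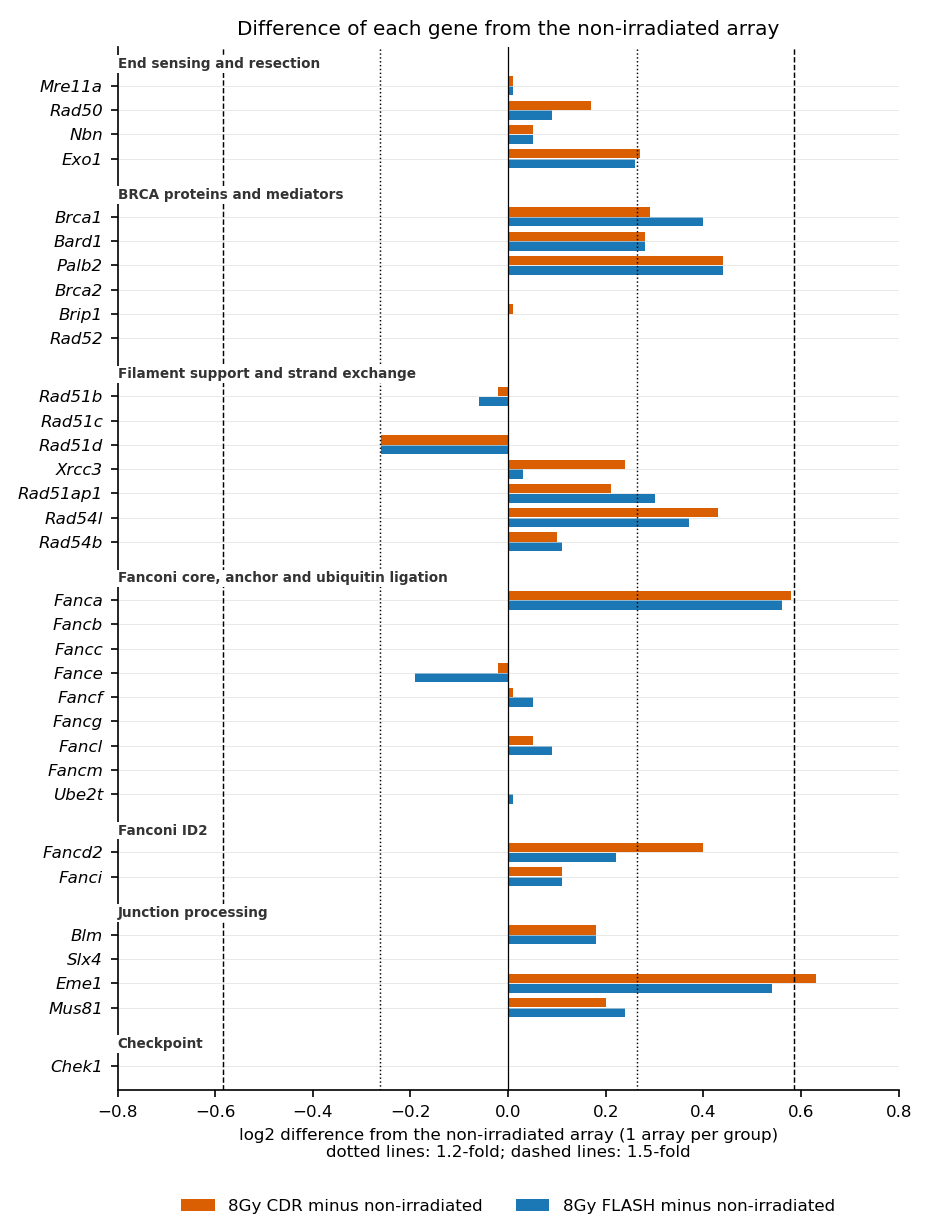
Log2 difference of each of the 33 genes from the non-irradiated array (x axis) for the 8Gy CDR array (orange) and the 8Gy FLASH array (blue), 1 array per group, by role. Dotted lines mark 1.2-fold and dashed lines 1.5-fold. Eme1 on the CDR array, at 0.63, is the only bar beyond a dashed line, and Rad51d, at -0.26 on both arrays, is the farthest to the left.

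The 4 measured genes of end sensing and resection were all higher on both irradiated arrays as deposited, by little. Of all detected genes, 34.7% were higher on CDR and 33.4% on FLASH. MRE11, RAD50 and NBN form the complex that binds broken ends and starts their trimming, and EXO1 is the exonuclease that extends it. Exo1 read 7.64 on the non-irradiated array, 7.90 on CDR and 7.90 on FLASH, so both irradiated arrays were above the non-irradiated one. Rad50 read 8.63, 8.80 and 8.72 in the same order, with differences of 0.17 and 0.09. Nbn differed by 0.05 on both irradiated arrays. Mre11a differed by only 0.005 on both, and turned lower after quantile normalisation and cyclic loess, rescalings described below. The 4 measured genes of this group had a median difference of 0.108 on CDR and 0.066 on FLASH.

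The BRCA group divided between genes that were higher and genes that were equal. BRCA1 and BARD1 form a ubiquitin ligase that directs breaks towards recombination. Brca1 read 7.11 on the non-irradiated array, 7.40 on CDR and 7.51 on FLASH, differences of 0.29 and 0.40. Bard1 read 6.21 without irradiation and 6.49 on both irradiated arrays, a difference of 0.28. These partners were thus both higher after irradiation on each array, by 1.21-fold to 1.32-fold. Palb2, which bridges BRCA1 and BRCA2, had 5.53 on the non-irradiated array and 5.97 on both irradiated ones (0.44, 1.36-fold), the largest difference of the group. In contrast, Brca2, whose product loads the filament, read 7.11 on all 3 arrays, and Rad52, an annealing protein, read 6.59 on all 3. The helicase gene Brip1 was 0.01 above the non-irradiated value on CDR and equal to it on FLASH. Of this group's 6 genes, 4 were higher on CDR and 3 on FLASH, and 0 were lower.

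The genes of filament support and strand exchange pointed both ways and held 2 of the 3 lower genes. RAD51B, RAD51C, RAD51D and XRCC3 are related proteins that stabilise the filament. Rad51d read 6.49 on the non-irradiated array and 6.23 on both irradiated arrays, a difference of -0.26 (1.2-fold), which at -0.262 fell just short of 1.2-fold by the threshold of 0.263. Rad51b read 6.88, 6.85 and 6.81 on the non-irradiated, CDR and FLASH arrays, lower by -0.02 and -0.06. Rad51d was therefore the lowest of all 33 genes relative to the non-irradiated array, and the difference in Rad51b was very small. Rad51c was at 5.40 on every array. Xrcc3 read 7.14, 7.38 and 7.17, so that the CDR array stood above the others.

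The accessory factors of strand exchange were higher on both irradiated arrays. RAD54L and RAD54B are DNA translocases that help the filament invade, and RAD51AP1 stimulates the same step. Rad54l read 7.17 on the non-irradiated array, 7.61 on CDR and 7.54 on FLASH, differences of 0.43 (1.35-fold) and 0.37 (1.29-fold). Rad51ap1 read 8.07, 8.28 and 8.37, and was highest on FLASH. Rad54b differed by 0.10 on CDR and 0.11 on FLASH. Over the 7 measured genes of filament support and strand exchange together, 4 were higher, 2 lower and 1 equal in each comparison.

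Among genes of Fanconi ubiquitin ligation, Fanca stood apart from the rest of its group in size. FANCA, FANCB, FANCC, FANCE, FANCF, FANCG and FANCL belong to the core complex, with FANCL its ubiquitin ligase, UBE2T the conjugating enzyme that works with it, and FANCM the protein that anchors the complex to DNA. Fanca read 6.14 on the non-irradiated array, 6.72 on CDR and 6.70 on FLASH. Its differences of 0.58 (1.49-fold) and 0.56 (1.47-fold) were just under the 1.5-fold threshold of 0.585. The other 8 genes of the group lay between -0.19 and 0.09 on both irradiated arrays. Fance read 6.60, 6.58 and 6.42, lower by -0.02 on CDR and -0.19 on FLASH. Fancf differed by 0.01 and 0.05, Fancl by 0.05 and 0.09, and Ube2t by 0.00 and 0.01. Fancb, Fancc, Fancg and Fancm each had a single value across the 3 arrays. The group's median difference was 0.00 in both comparisons, since 5 of 9 genes were equal on CDR and 4 of 9 on FLASH.

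FANCD2 and FANCI form the clamp that the core complex ubiquitinates. Fancd2 read 6.68 on the non-irradiated array, 7.08 on CDR and 6.90 on FLASH, differences of 0.40 (1.32-fold) and 0.22 (1.16-fold). Fanci read 6.24 and then 6.35 on both irradiated arrays, a difference of 0.11. Both genes were thus above the non-irradiated array on each irradiated one.

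In the last step, BLM dissolves joined molecules, while SLX4 is the scaffold for nucleases that cut them and MUS81 with EME1 is such a nuclease. Eme1 read 5.08 on the non-irradiated array, 5.71 on CDR and 5.62 on FLASH. Its difference of 0.63 (1.55-fold) on CDR was the largest of all 33 genes and the only one past 1.5-fold, and on FLASH it was 0.54 (1.46-fold). With an offset of 32 added before the log, which shrinks differences of dim genes, Eme1 stood at 0.357 on CDR and no gene of the 33 passed 1.5-fold. Mus81, which encodes the partner of EME1, read 5.44, 5.64 and 5.68, differences of 0.20 and 0.24. Blm read 7.75 and then 7.93 on both irradiated arrays. Slx4 read 6.10 on every array. Chek1, whose product is the checkpoint kinase that halts the cycle during repair, likewise had 7.76 on all 3.

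**Figure D2:**
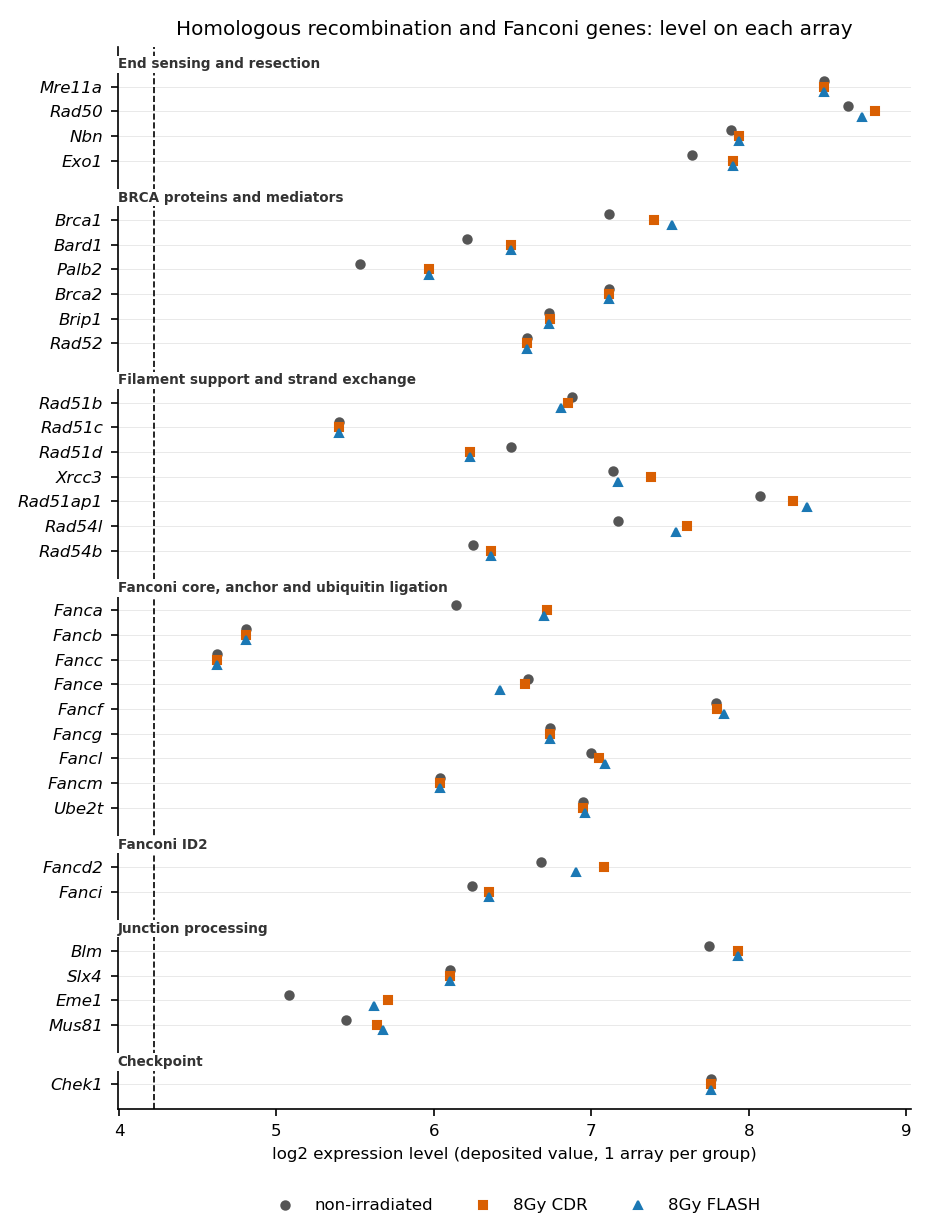
Deposited log2 level (x axis) of each of the 33 genes on the non-irradiated (grey circles), 8Gy CDR (orange squares) and 8Gy FLASH (blue triangles) arrays, 1 array per group, by role. The dashed line is the highest of the detection levels, 4.22; all points lie to its right, and levels of different genes are not comparable because their probes differ.

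Equal values were common in the deposited table and limit what the counts can show. An identical value stood on all 3 arrays for 9 of the 33 genes (27.3%), namely Brca2, Rad52, Rad51c, Fancb, Fancc, Fancg, Fancm, Slx4 and Chek1. The share was 27.2% over 13527 genes detected in any comparison. Another 7 genes had 1 value on both irradiated arrays and a different one on the non-irradiated array (21.2%, against 16% of those genes). These were Mre11a, Nbn, Bard1, Palb2, Rad51d, Fanci and Blm. Centring each array on its median over named genes adds a constant to every gene, 0.057 on CDR and 0.025 on FLASH relative to the non-irradiated array, so each equal gene turns higher by construction. After it 32 of 33 genes on CDR and 30 on FLASH were higher, but so were 74.7% and 70% of all detected genes. After quantile normalisation the counts were 27 and 28 of 33, beside 60.5% and 58.6% of detected genes. With cyclic loess they were 23 and 27, beside 52% and 56%.

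The genes whose direction turned were those with the smallest differences. The constant of centring turned Rad51b and Fance on CDR, both at -0.024 as deposited. Mre11a, Fance and Fancf turned on CDR after quantile normalisation, and Mre11a and Fancf after cyclic loess. On FLASH, Mre11a turned after quantile normalisation and after cyclic loess. The 8 and 7 genes at least 1.2-fold higher on CDR and FLASH kept their direction under all 3 rescalings, but Exo1 on CDR no longer passed 1.2-fold after quantile normalisation (0.242) or cyclic loess (0.252). Genes that newly passed it upwards were Xrcc3 and Rad51ap1 on CDR and Exo1 and Mus81 on FLASH after centring, and Mus81 on both arrays after quantile normalisation. Rad51d was at least 1.2-fold lower on CDR after cyclic loess.

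The FLASH and CDR arrays share the dose and are labelled by its delivery, and the genes lay close together on them. They also came from different mice, with 1 array each, so delivery cannot be told apart from other differences between mice or arrays. Of the 33, 16 were equal (48.5%), 10 were lower and 7 were higher on FLASH, where 43.2% of 13355 detected genes were equal, 31.5% lower and 25.3% higher. The median difference was 0.00 and the range ran from -0.22 to 0.11. None of the 33 was at least 1.2-fold different, while 5.02% of detected genes were higher and 4.89% lower by that much. At 1.5-fold those shares of detected genes were 1.83% and 0.771%, and at 2-fold 0.839% and 0.142%. The gap was under 0.1 for 29 of the 33 (87.9%), against 71% of detected genes. In the lists described below, it was under 0.1 for 85% of end joining and 83.3% of DNA replication genes. For other genes of the pathways the share was 74.2%, and for mitosis genes 69.2%. The 4 wider gaps among the 33 were Xrcc3 at -0.22, Fancd2 at -0.19, Fance at -0.16 and Brca1 at 0.11. Of these, 3 were lower on the FLASH array. Directions here followed the scaling. Centring shifts every gene by -0.033 in this comparison, so the 16 equal genes turn lower by construction, and 28 genes were then lower and 5 higher, where 79.3% of detected genes were lower and 20.7% higher. After quantile normalisation 23 were lower and 10 higher, beside 61.9% and 36.9% of detected genes. After cyclic loess 12 were lower and 21 higher, beside 43.8% and 56.2%. Without replicate arrays these values do not show that both dose rates act alike.

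Genes with and without E2F letters in their promoters were set side by side. Rad50, Nbn, Exo1, Rad51d, Rad54b and Fancd2 had no promoter and are outside this contrast. On CDR they differed by 0.17, 0.05, 0.27, -0.26, 0.10 and 0.40. Over all detected genes on CDR, 34.7% were higher, 35% equal and 30.4% lower. Of the 15 genes with a match, 7 were higher on CDR, 8 were equal and 0 were lower, with a median of 0.00 and a range of 0.00 to 0.29. Of the 12 without a match, 8 were higher, 2 equal and 2 lower, with a median of 0.127 and a range of -0.02 to 0.63. The 4 largest differences on CDR, in Eme1, Fanca, Palb2 and Rad54l, were in genes without a match. On FLASH the medians were 0.00 with and 0.061 without a match, with ranges of 0.00 to 0.40 and -0.19 to 0.56. There Fanca, Eme1 and Palb2, without a match, were followed by Brca1, which has one, at 0.396 against 0.367 for Rad54l. Bard1, Rad51ap1 and Blm had a match and were higher on both arrays too. The contrast was not tested.

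**Figure D3:**
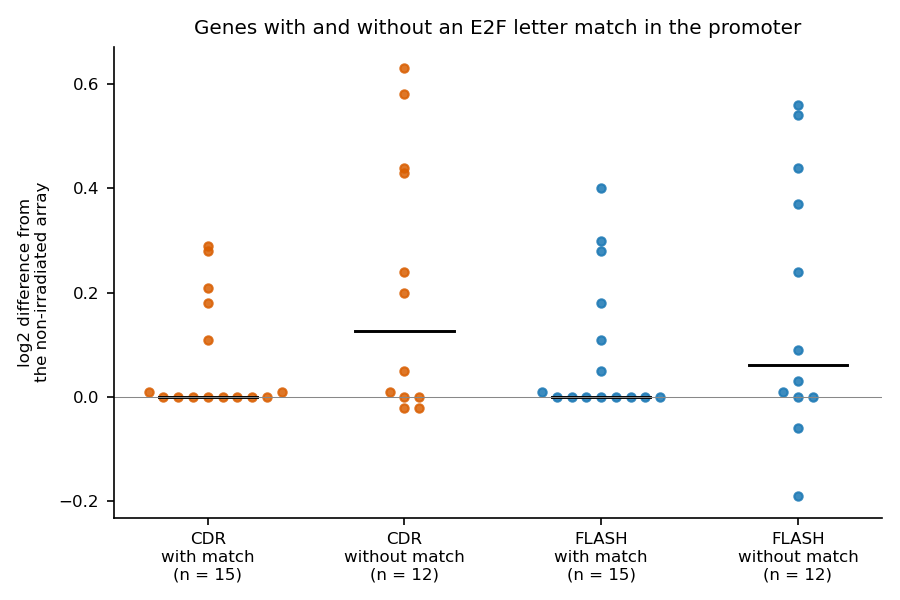
Log2 difference from the non-irradiated array (y axis) of the 27 genes with a RefSeq promoter, for the CDR (orange) and FLASH (blue) arrays, split by an E2F letter match within the promoter. Each point is a gene and each black line the median; the genes without a match spread up to 0.63 on CDR, whereas those with a match reach 0.29 on CDR and 0.40 on FLASH.

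Other genes of the same pathways were described from a separate list, of which 66 were measured. On the CDR array 37 of the 66 were higher (56.1%), 19 equal and 10 lower, and on FLASH these numbers were 36, 23 and 7. Over all detected genes, 34.7% were higher on CDR and 33.4% on FLASH. The 1.5-fold threshold was passed upwards by 5 on CDR (7.58%) and 4 on FLASH (6.06%), beside 3.19% and 3.54% of all detected genes. It was passed downwards by 0 on either, beside 5.38% and 5.23%. Gen1, a nuclease that cuts Holliday junctions as MUS81 with EME1 does, read 6.29 on the non-irradiated array, 7.64 on CDR and 7.59 on FLASH, which was 2.55-fold and 2.46-fold higher. That exceeded every difference among the 33. Faap24, which encodes the partner of FANCM, was higher by 0.86 and 0.84 although Fancm itself was equal. The remaining genes past 1.5-fold were Hrob, a partner of the MCM8 and MCM9 helicase, at 0.69 and 0.83, the meiotic recombination factor Mnd1 at 0.70 on both, and Rfwd3, a ubiquitin ligase also classed as a Fanconi gene, at 0.65 and 0.39.

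The listed genes of end joining, the repair route that needs no sister chromatid, gave 7 of 20 detected higher on CDR (35%), 10 equal and 3 lower, and 8, 10 and 2 on FLASH. These shares higher, 35% and 40%, stood beside 34.7% and 33.4% of all detected genes. The median of the end joining genes was 0.00 in both comparisons, as over all detected genes. None passed 1.5-fold, where 3.19% and 3.54% of detected genes were higher and 5.38% and 5.23% lower by that much. Whether the recombination genes differed from them was not tested.

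Genes of the cell cycle were also mostly higher on both irradiated arrays, where 34.7% of all detected genes were higher on CDR and 33.4% on FLASH. DNA replication genes were higher for 38 of 42 on CDR and 36 of 42 on FLASH, with medians of 0.163 and 0.151, and Ccne1, cyclin E1, at 1.10 and 1.29. Mitosis genes were higher for 38 of 39 on each, with medians of 0.397 and 0.437, and Plk1, a mitotic kinase, at 0.91 and 1.09. By the count higher by any amount and by median, the 33 recombination and Fanconi genes lay between all detected genes and these lists. At 1.2-fold they also lay between, with 24.2% higher on CDR and 21.2% on FLASH beside 12.7% and 12.5% of all detected genes. Of replication genes 31% and 33.3% passed 1.2-fold upwards, and of mitosis genes 82.1% on each array. By the count at least 1.5-fold higher the 33 genes did not lie between. They had 3.03% (1 gene) on CDR and 0% on FLASH, beside 3.19% and 3.54% of all detected genes. That count was 9.52% on each array for replication genes, and 23.1% and 30.8% for mitosis genes. The part of the cell cycle genes in the result was not tested.

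**Figure D4:**
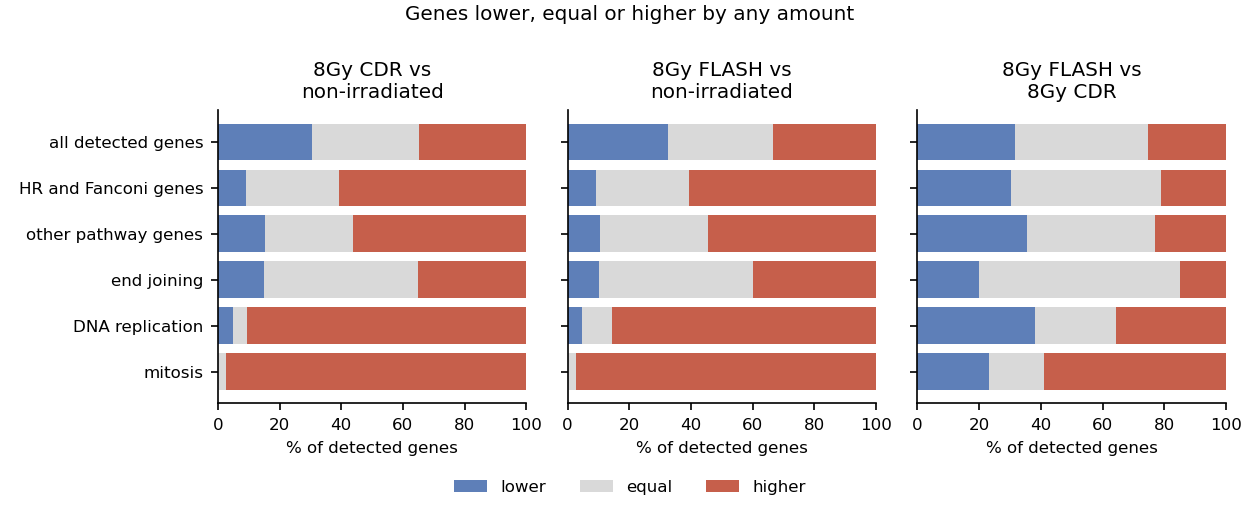
Percent of detected genes (x axis) that were lower (blue), equal (grey) or higher (red) by any amount in each comparison, for all detected genes, the 33 homologous recombination (HR) and Fanconi genes, and the 4 other lists. The red part is 60.6% for the 33 genes on both irradiated arrays against 34.7% and 33.4% for all detected genes, and between FLASH and CDR it is 21.2% for the 33 genes and 25.3% for all detected genes.

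Markers of cell types moved as well. All 9 measured erythroid markers were higher on both irradiated arrays, with a mean level of 6.98 without irradiation, 7.93 on CDR and 8.13 on FLASH, and Rhag, a red cell membrane protein, at 1.62 and 1.67. LT-HSC markers had mean levels of 7.02, 6.28 and 6.45 on those arrays, with 11 of 12 lower on CDR and 10 on FLASH, among them Hlf, a stem cell transcription factor, at -2.00 and -1.90. Dendritic and monocyte markers had mean levels of 6.62, 7.18 and 7.73, but pointed both ways on FLASH. There 6 of 8 were higher, among them H2-Eb1 of antigen presentation at 2.36 and the dendritic receptor gene Clec9a at 2.15, while Csf1r at -0.78 and Ly6c2 at -0.59 were lower; on CDR all 7 detected were higher. Granulocyte markers had means of 8.96, 8.68 and 8.72, with 5 of 9 detected higher and 4 lower on each irradiated array, such as Lcn2 at 2.17 on CDR and 1.42 on FLASH and S100a9 at -2.25 and -1.31. Mast cell markers had means of 7.41, 7.21 and 7.68. Of the 5 measured, 1 was higher, 3 lower and 1 equal on CDR, and 2 were higher and 3 lower on FLASH. Tpsb2 read 3.89 without irradiation, under the detection level, 5.89 on CDR and 6.81 on FLASH. Prss34 had differences of -2.71 and -1.38. No other mast cell marker was at least 1.2-fold different from the non-irradiated array. B and plasma cell markers had means of 6.75, 5.98 and 6.54, with 7 of 8 detected lower on CDR and 6 of 8 on FLASH. T cell markers had means of 3.69, 3.56 and 3.61, under the detection levels. Single T cell markers exceeded them, Cd8a at 4.25, 4.37 and 4.37 and Cd4 at 4.36 on the non-irradiated array alone. The part of these cell types in the differences of the recombination and Fanconi genes was not tested.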

How the data were processed

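Per the labels, total RNA was biotin-labelled with the Affymetrix whole transcript sense target assay. The deposited values are the authors' processed levels, taken as log2 from their range. The submitters' processing notes name Partek without a version, and how background was corrected and values summarised or normalised is not stated. Of 25206 probe sets, 23185 carried 1 gene symbol, 0 several, and 2021 were not listed. No depth exists for arrays, and their number limits the precision.

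Values were used as deposited. Differences were counted past 1.5-fold, with 1.2-fold and 2-fold as alternatives, beside centring, quantile normalisation, cyclic loess (limma 3.58.1, R 4.3.3), an offset of 32, no filter, the 99th percentile as filter, and dim values raised to the detection level. The differences, the detection rule and the 1.5-fold call were tested on simulated data for the CDR comparison. Counts of equal values, the rescalings and the promoter search were not tested in this way. Python 3.11.15, numpy 2.4.6, pandas 2.3.3 and matplotlib 3.10.9 were used. All 33 measured genes could be named; from other lists, genes at least 1.5-fold different, at most 6 of the pathway list and 3 of each other list by size. Mcm8, Mcm9, Lig4, Cd3d, Cd3e, Cd3g, Cd8a, Csf1r and Ly6c2 fall outside this rule and were chosen after their values were seen. The genes and lists were chosen with earlier results of these data known.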

Additional observations from a re-analysis of the deposited data

How the results depend on the processing

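With 1 array per group no result has a replicate check, the study gives no noise level, and a median was taken as moved past 0.1. No paired analysis was possible because each group had 1 array and no test was made. The median difference of the 33 genes stayed positive on CDR, from 0.03 with cyclic loess to 0.104 with centring. On FLASH it ran from 0.036 to 0.071 in the same settings. The means were 0.132 and 0.115. Centring raises every gene, and with it the median over all detected genes was 0.057 on CDR and 0.025 on FLASH. That median was 0.035 and 0.018 after quantile normalisation, and 0.002 on each after cyclic loess. Between FLASH and CDR the median of the 33 genes ran from -0.033 to 0.004. The count at least 1.5-fold higher on CDR was 2 instead of 1 after centring and after quantile normalisation, with Fanca joining Eme1, and 0 with the offset of 32. On FLASH it was 2 instead of 0 after quantile normalisation, again Eme1 and Fanca. At 1.2-fold the counts were 8 and 7, and at 2-fold 0 on CDR. All other counts past 1.5-fold were the same under each alternative. Of 99 single gene differences, 6 moved by at least 0.1, all with the offset of 32 and all for Eme1, Fanca and Palb2. Leaving out the filter or raising dim values could change nothing, because all 33 genes read above the detection level on every array. The stricter filter alters only which genes are counted, and could not move a gene's difference. The stricter filter kept 31 of the 33 genes.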

Other observations

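Of the other pathway genes, Mcm8, chosen here after its values were seen, was the only one at least 1.2-fold different between the irradiated arrays. That made 1.54% of the 65 detected ones higher on FLASH and 0% lower, beside 5.02% and 4.89% of all detected genes. MCM8 and MCM9 form a helicase of recombination. Mcm8 read 6.52 without irradiation, 6.52 after CDR and 6.89 after FLASH, a difference of 0.37 (1.3-fold) between FLASH and CDR. Mcm9, its partner's gene, read 5.88 on the non-irradiated array and 5.60 on both irradiated arrays, lower by -0.28. The pair therefore differed in pattern on these arrays. Of the end joining genes, Lig4, the ligase of that route and also chosen after its values were seen, was likewise equal without irradiation and after CDR, at 4.78, and higher on FLASH, at 5.06 (0.28, 1.21-fold). With 1 array per group neither difference was tested.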
